A study of Mus musculus with 10 samples.

Results

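Interleukin-17 receptor signalling and its targets were described from 18 probe sets of 10 genes, chosen as every probe set whose annotation gives exactly 1 gene symbol and whose symbol is Il17ra, Il17rc, Traf3ip2, Nfkbiz, Zc3h12a, Cebpb, Cebpd, Steap4, Lcn2 or Il6. These are 10 of the 18193 genes, and 18 of the 45037 probe sets without controls, in the array table. Gene expression was measured with 1 Affymetrix GeneChip mouse genome array per mouse in the abdominal aorta of 6 KCASP1Tg mice and 4 WT mice, all female and 16 weeks old. KCASP1Tg mice carry human caspase-1 under the keratin 14 promoter, so that the transgene is made in epidermal keratinocytes, and develop dermatitis, whereas the WT mice were C57BL/6 littermates. The aorta was thus examined at a distance from the tissue that carries the transgene, and the comparison asks how this pathway is expressed in the vessel when the skin is inflamed.

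IL-17A and IL-17F, made mostly by T cells and innate lymphocytes, bind a receptor of the subunits IL-17RA and IL-17RC. The receptor recruits Act1, the product of Traf3ip2, which activates NF-κB through TRAF6 and also stabilises the mRNAs of target genes. Its response also depends on inducible regulators, IκBζ (Nfkbiz) and the C/EBP factors, and is limited by the ribonuclease Regnase-1 (Zc3h12a), which degrades mRNAs such as Il6 and Nfkbiz. Lcn2, Steap4 and Il6 are targets induced by IL-17 in mesenchymal and epithelial cells.

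The values are MAS5 signals on a linear scale, each array scaled to a trimmed mean of 500. Values were floored at 1 and put on the log2 scale, and limma was fitted to the probe sets that reached a signal of 100 on 4 or more of the 10 arrays. This filter kept 16 of the 18 member probe sets and 9 of the 10 genes, and 26242 probe sets in all. Il6 and 1 of 2 probe sets of Il17rc were below it. Precision is limited by the number of arrays, and levels were not compared between genes. The summed signal of a list gives most weight to its brightest probe sets.

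The tissue held the smooth muscle genes of the vessel wall, with Acta2, smooth muscle actin, at 18138 to 42487 in KCASP1Tg mice and 35369 to 41902 in WT mice, and also fat, with Adipoq at 29503 to 45368 and 30703 to 37705. Krt14, the gene of the promoter that drives the transgene, had a signal of 1.39 to 43.3 in KCASP1Tg mice and 17.9 to 49.3 in WT mice. Some arrays stood apart. KCASP1Tg 4 had the lowest summed signal of 6 smooth muscle genes (30316, where the remaining KCASP1Tg mice had 66748 to 81847 and WT mice 70201 to 80503) and the highest of 10 neutrophil genes. Liver transcripts were unevenly spread, with Alb, albumin, at 72.9 to 2366 in KCASP1Tg mice and at 43054 in WT 1, 998 in WT 2, 25226 in WT 3 and 3695 in WT 4. In RNA of a whole tissue, more cells of a type and more RNA per cell cannot be told apart.

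By the probe set with the highest mean signal, Lcn2, Cebpd, Nfkbiz and Il17ra were higher in every KCASP1Tg mouse than in every WT mouse. The differences were 6.68, 2.11, 1.58 and 1.88 times on the mean log2 scale. The second probe sets of Il17ra and Cebpd overlapped (1.44 and 1.28 times), as did Il17rc, Traf3ip2, Zc3h12a, Cebpb and Steap4. Counted by probe set, the groups did not overlap for 6 of the 16 tested, all with KCASP1Tg above WT, where the same held for 1.98% of all probe sets tested, and for 0 in the other direction (0.949% of all). None of the 16 passed limma at an adjusted p under 0.05. Over all probe sets 0.0686% were called as higher and 0.0% as lower. At an unadjusted p under 0.05 there were 6 of the 16 that were higher (4.52% of all) and 0 that were lower (3.42% of all), and by the exact two-sided Mann-Whitney test 6 were higher before adjustment (4.75% of all) and 0 passed after it (0.0% of all). The log2 fold change was positive for 14 of the 16 (49.6% of all). The median log2 fold change was 0.30 over the 16 probe sets and -0.0018 over all that were tested. These counts include 3 probe sets of Nfkbiz, which measure 1 gene and are not independent.

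**Figure D1:**
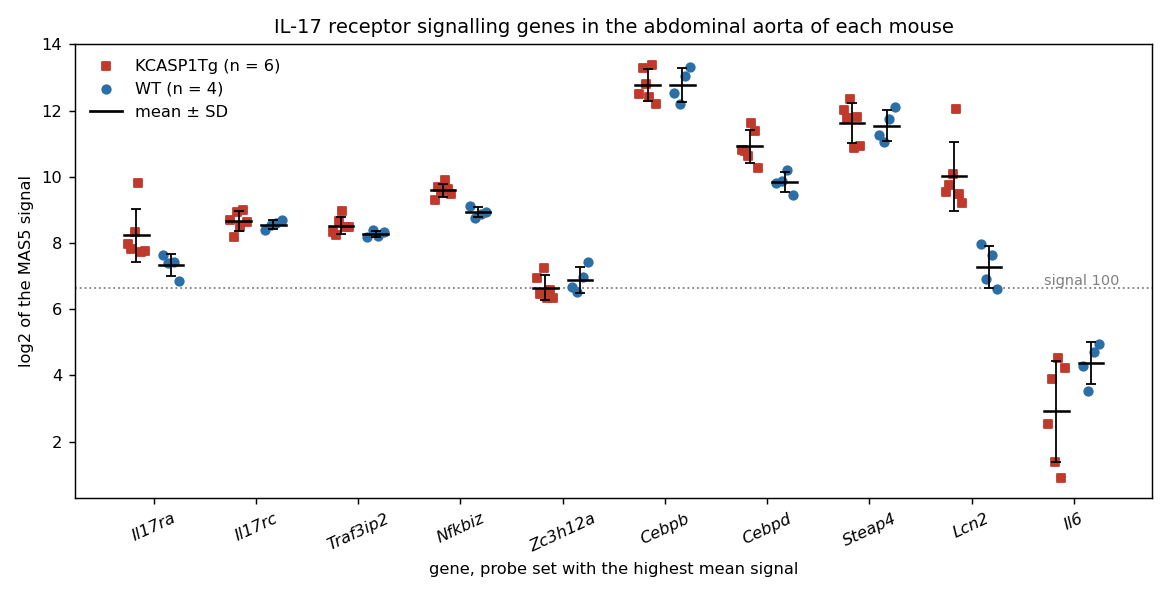
Signal (log2 of the MAS5 signal) of the 10 genes, each by its probe set with the highest mean signal, in each KCASP1Tg mouse (squares, n = 6) and each WT mouse (circles, n = 4), with the mean and SD as black lines; the dotted line marks a signal of 100. The squares lie above all circles for Il17ra, Nfkbiz, Cebpd and Lcn2, and both groups of Il6 lie below the dotted line.

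Il17ra, on chromosome 6, encodes the receptor subunit shared by several IL-17 family receptors. Its brighter probe set (1420905_at) had signals from 210.9 to 902 with a median of 239 in KCASP1Tg mice, against 197, 169, 172 and 116 in WT mice. All 6 KCASP1Tg mice were above the highest WT mouse, 5 of them at 211 to 319 and KCASP1Tg 4 far above these. The log2 fold change was 0.91 (standard error 0.38, 95% interval 0.06 to 1.76, adjusted p = 0.592 from limma). The Mann-Whitney test, exact and two-sided, gave p = 0.00952, the smallest that 6 against 4 arrays allow, and 0.325 after adjustment. These Mann-Whitney values are the same for every probe set whose groups did not overlap. Without KCASP1Tg 4 the log2 fold change was 0.59 (adjusted p = 0.359 from limma). The second probe set of Il17ra (1420904_at) overlapped between the groups, at 94.2 to 346 with a median of 139.7 in KCASP1Tg mice and 115, 68.2, 94.4 and 188 in WT mice, with a log2 fold change of 0.52 (95% interval -0.29 to 1.34). KCASP1Tg 4 was the highest array on both.

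Il17rc, also on chromosome 6, encodes the partner subunit that makes the receptor specific for IL-17A and IL-17F. Its tested probe set (1419671_a_at) had signals of 288 to 508 with a median of 404 in KCASP1Tg mice and of 335, 374, 390.4 and 410.4 in WT mice. KCASP1Tg 2 was below all WT mice and 3 KCASP1Tg mice were above them, of which KCASP1Tg 1 (410.6) only just, and the log2 fold change was 0.10 (95% interval -0.26 to 0.45, adjusted p = 0.957 from limma). The other probe set (1457471_at) did not exceed 40.5 on any array. The patterns of the subunits over the mice were unlike: Il17ra was highest in KCASP1Tg 4, whose Il17rc signal of 361 was below the KCASP1Tg median.

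Traf3ip2, on chromosome 10, encodes the adaptor Act1. Its signal was 305 to 500.03 with a median of 356 in KCASP1Tg mice and 291, 334, 298 and 319 in WT mice. Of the 6 KCASP1Tg mice, 4 were above all WT mice and the remaining ones lay within their range. The log2 fold change was 0.25 (95% interval -0.06 to 0.57, adjusted p = 0.729 from limma), and 0.16 without KCASP1Tg 4, which had the highest signal.

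Nfkbiz, on chromosome 16, encodes IκBζ, a nuclear cofactor of NF-κB that is needed for many secondary response genes, Lcn2 and Il6 among them. It was measured by 3 probe sets, and on each of them every KCASP1Tg mouse was above every WT mouse. The brightest (1417483_at) had signals of 624 to 948 with a median of 769 in KCASP1Tg mice, against 557, 434, 474 and 492 in WT mice. Its log2 fold change was 0.66 (standard error 0.13, 95% interval 0.37 to 0.95, adjusted p = 0.126 from limma).

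The other probe sets of Nfkbiz gave 0.65 (1457404_at, 95% interval 0.31 to 0.99, adjusted p = 0.229 from limma) and 0.53 (1448728_a_at, 0.26 to 0.79, adjusted p = 0.195). The second of these had signals of 389 to 554 in KCASP1Tg mice and 336, 303, 315 and 350 in WT mice. KCASP1Tg 4 was the highest mouse on 2 of the 3 probe sets and KCASP1Tg 5 on the other, and WT 2 was the lowest on all of them. Nfkbiz varied less among KCASP1Tg mice than Lcn2, Il17ra or Cebpd did, and its difference depended little on KCASP1Tg 4: without this mouse it was 0.60, 0.57 and 0.54. With array weights the probe sets 1417483_at and 1448728_a_at passed (log2 fold change 0.62 and 0.57, adjusted p = 0.0362 and 0.0419 from limma). This setting called 267 of all probe sets, where the main fit called 18.

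Zc3h12a, on chromosome 4, encodes the ribonuclease Regnase-1, which restrains the same response. It was dim, and its 2 probe sets ran in opposite directions. The first (1443993_at) had 80.4 to 152 in KCASP1Tg mice and 102, 92.0, 125 and 170.1 in WT mice (log2 fold change -0.24, 95% interval -0.74 to 0.27). The second (1427348_at) had 78.7 to 179.7 and 64.6, 119, 95.2 and 116 (0.19, -0.38 to 0.76). Both overlapped between the groups, with adjusted p = 0.886 and 0.939 from limma, and no direction can be given for this gene.

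The C/EBP factors differed from each other. Cebpd, on chromosome 16, encodes C/EBPδ, a factor that is low in most resting cells and is induced by inflammatory cytokines and by glucocorticoids. Its bright probe set (1423233_at) had signals of 1238 to 3166 with a median of 1766 in KCASP1Tg mice, against 901, 929.8, 1184 and 703 in WT mice. Every KCASP1Tg mouse was above every WT mouse, the nearest being KCASP1Tg 6 (1238) and WT 3 (1184). The log2 fold change was 1.08 (standard error 0.26, 95% interval 0.51 to 1.65, adjusted p = 0.233 from limma), and 0.94 without KCASP1Tg 4. The dimmer probe set of Cebpd (1456605_at) had 153 to 312 in KCASP1Tg mice and 171, 149, 158 and 168 in WT mice, with 5 of 6 KCASP1Tg mice above all WT mice (0.36, 95% interval -0.03 to 0.74, adjusted p = 0.665 from limma). Its highest mouse was KCASP1Tg 2, not KCASP1Tg 4.

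Cebpb, on chromosome 2, encodes C/EBPβ, whose activity IL-17 also controls by phosphorylation of the protein. It had signals of 4736 to 10723 with a median of 6469 in KCASP1Tg mice and of 5976, 4689, 8452 and 10243 in WT mice (1418901_at). The ranges nearly coincided, and the log2 fold change was -0.01 (95% interval -0.65 to 0.63, adjusted p = 0.999 from limma). The second probe set gave 0.01 (1427844_a_at, -0.68 to 0.70). The 10 mice spread over more than the difference between the means on both, with KCASP1Tg 5, WT 4 and KCASP1Tg 2 at the top of the first and WT 2, KCASP1Tg 6 and KCASP1Tg 4 at its bottom.

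**Figure D2:**
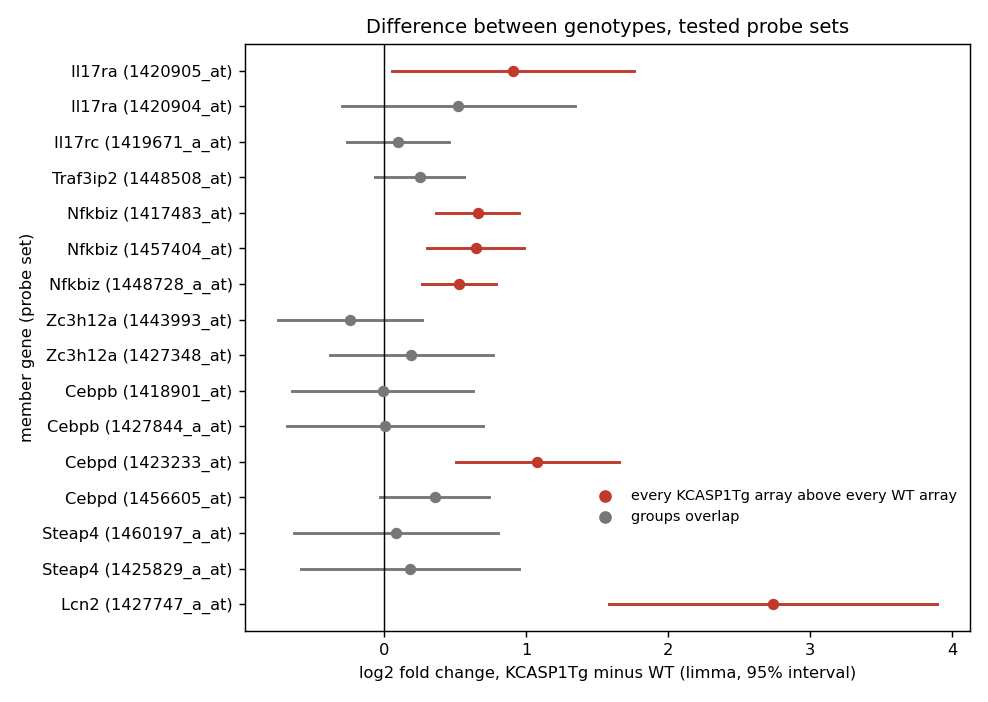
Log2 fold change, KCASP1Tg minus WT, of the 16 tested probe sets (points) with the 95% interval of limma (lines), in red where all KCASP1Tg arrays lay above all WT arrays. The 3 Nfkbiz probe sets lie between 0.53 and 0.66, Lcn2 lies at 2.74 with the widest interval, and both Cebpb probe sets lie at 0.

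Lcn2, on chromosome 2, encodes lipocalin 2, a protein that binds bacterial siderophores and withholds iron. It is induced by IL-17 in many cells and is also stored in the secondary granules of neutrophils. Its signal (1427747_a_at) was 585 to 4275 with a median of 802 in KCASP1Tg mice, against 252, 119, 197 and 97.3 in WT mice. Of the KCASP1Tg mice 5 lay at 585 to 1087 and KCASP1Tg 4 stood apart at 4275, and the lowest KCASP1Tg mouse, KCASP1Tg 6, was above the highest WT mouse. The log2 fold change was 2.74 (standard error 0.52, 95% interval 1.58 to 3.895, adjusted p = 0.119 from limma). Without KCASP1Tg 4 it was smaller, at 2.33, but with a standard error of 0.29 it passed (adjusted p = 0.0159 from limma), and it also passed with array weights (2.22, adjusted p = 0.0118). In these settings 69 and 267 of all probe sets were called, where the main fit called 18.

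Markers of other cell types moved with Lcn2. The summed signal of the 10 neutrophil genes on the array ran from 6567 to 59632 in KCASP1Tg mice and from 539 to 690 in WT mice. It was highest in KCASP1Tg 4 and next highest in KCASP1Tg 3 (13200), as Lcn2 was. In KCASP1Tg 3 the sum held 5924 of S100a8 and 5222 of S100a9. Mmp8 and Csf3r were also next highest in KCASP1Tg 3, but Ltf and Camp were so in KCASP1Tg 2, Ngp in KCASP1Tg 1 and Mpo in KCASP1Tg 5. Of 12 neutrophil genes listed 8 were tested, and S100a8 and S100a9 were called as higher (0.0686% of all probe sets tested). For 5 of the 8, Csf3r, Mmp8, Ltf, Camp and Mpo, the signal was below 100 in every WT mouse, so that they passed the filter through KCASP1Tg mice alone and their positive sign was set by it. The secondary granule gene Ltf, lactoferrin, had signals of 151 to 2699 in KCASP1Tg mice and 12.4 to 96.3 in WT mice, and Ngp 456 to 8542 and 44.8 to 117. Elane and Mpo, of the primary granules, had signals of 20.7 to 495 and 44.6 to 886 in KCASP1Tg mice and 19.8 to 98.9 and 36.8 to 87.5 in WT mice. The summed signal of 8 monocyte and macrophage genes was also highest in KCASP1Tg 4 (39886) and next highest in KCASP1Tg 3 (27048), with 13952 to 20673 in the remaining KCASP1Tg mice and 10153 to 15003 in WT mice. All 8 of them were tested and had a positive log2 fold change (49.6% of all probe sets tested), and 0 were called, with a median of 0.62. Of the 8, 4 had an unadjusted p under 0.05 from limma (4.52% of all, as higher) and 3 did not overlap (1.98% of all). The brightest of these, Lyz2, lysozyme, had 7854 to 23670 in KCASP1Tg mice and 4318 to 7035 in WT mice. Fibroblast genes lay the other way: 0 of 6 had a positive value (49.6% of all), 3 had an unadjusted p under 0.05 (3.42% of all, as lower) and 0 were called, with a median of -0.49. Their summed signal overlapped, at 27229 to 46133 in KCASP1Tg mice and 38798 to 43339 in WT mice. Of 6 smooth muscle genes 0 had a positive value too, but 0 had an unadjusted p under 0.05, with a median of -0.28. Liver transcripts were mostly higher in WT mice, but 0 of the 5 tested were called and their summed signal overlapped, with 3264 in KCASP1Tg 1 and 1507 in WT 2. WT 1 and WT 3, which held the most, were the WT mice with the highest Lcn2. KCASP1Tg 1 held the most among KCASP1Tg mice, and its Lcn2 signal of 741 was below their median. Without WT 1 and WT 3 the log2 fold change of Lcn2 was 3.26 (adjusted p = 0.553 from limma). The part of neutrophils, macrophages, fibroblasts, smooth muscle or liver RNA in the Lcn2 signal was not tested.

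Steap4, on chromosome 5, encodes a metalloreductase of the cell surface that is abundant in fat and is induced by IL-17 and TNF. Its brighter probe set (1460197_a_at) had signals of 1878 to 5272 with a median of 3548 in KCASP1Tg mice and of 2473, 2126, 3464 and 4395 in WT mice. The log2 fold change was 0.08 (95% interval -0.63 to 0.80, adjusted p = 0.992 from limma), and the other probe set (1425829_a_at) gave 0.18 (-0.59 to 0.95). On both, KCASP1Tg 3 was the highest mouse, and KCASP1Tg 4 and KCASP1Tg 6 were the lowest. The summed signal of 6 adipocyte genes was also highest in KCASP1Tg 3 (139404) and lowest in KCASP1Tg 4 (84454), with 95991 to 118862 in WT mice. Its part in the Steap4 signal was not tested.

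Il6, on chromosome 5, encodes interleukin-6, which IL-17 induces together with TNF and IL-1. Its probe set (1450297_at) had signals of 1.88 to 23.0 with a median of 10.3 in KCASP1Tg mice and of 19.6, 11.5, 26.3 and 31.2 in WT mice. None of the 10 arrays reached 100. Of the KCASP1Tg mice 3 were below all WT mice and 0 were above all of them (exact two-sided Mann-Whitney p = 0.114).

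**Figure D3:**
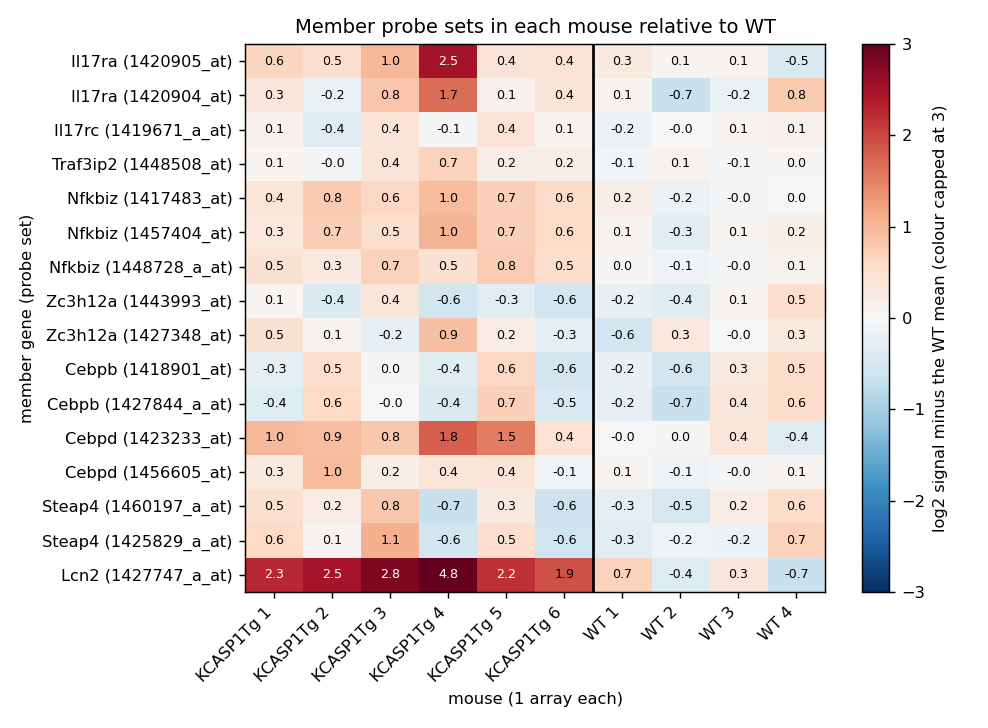
Log2 signal minus the mean of the WT mice for the 16 tested probe sets (rows) in each mouse (columns, KCASP1Tg left of the line, WT right of it); red is above and blue below the WT mean, with the value printed. KCASP1Tg 4 holds the highest Lcn2 and Il17ra values and is below the WT mean for Steap4 and Cebpb.

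KCASP1Tg 4 was the highest of the 10 arrays for 8 of the 16 tested member probe sets, where it was the highest for 23.2% of all probe sets tested. It was the lowest array for the brighter Steap4 probe set. Leaving it out, the groups did not overlap for 6 of 16 member probe sets, against 2.42% of all. Leaving out WT 1 and WT 3 this held for 6 of 15 (3.94% of all), and leaving out WT 4 and KCASP1Tg 3 for 6 of 15 (3.75% of all). Groups that do not overlap cannot come to overlap when arrays are left out, so these 6 probe sets were bound to stay apart. No other member probe set joined them.

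The promoters of the 3 target genes are shown because IκBζ with NF-κB and the C/EBP factors act on such elements. RefSeq start sites (GRCm38.p6) were given for 6 of the 10 members: Il17rc, Zc3h12a, Cebpb, Steap4, Lcn2 and Il6. The 250 bases before each start were searched on both strands for GGG followed by 5 bases of any kind and CC, a loose form of the κB element, and TTGCNNAA, a loose form of the C/EBP element. Capitals mark matches on either strand, and overlapping matches run together.
Lcn2 promoter, chr2:32387817-32387970, minus strand: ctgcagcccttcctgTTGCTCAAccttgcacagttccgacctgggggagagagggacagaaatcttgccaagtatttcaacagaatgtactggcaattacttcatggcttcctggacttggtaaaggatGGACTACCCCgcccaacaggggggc
Steap4 promoter, chr5:7960222-7960423, plus strand: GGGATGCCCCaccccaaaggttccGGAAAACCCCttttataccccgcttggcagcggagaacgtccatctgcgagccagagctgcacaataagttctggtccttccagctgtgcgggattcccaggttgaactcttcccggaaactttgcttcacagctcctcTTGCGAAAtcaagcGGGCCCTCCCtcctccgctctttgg
Il6 promoter, chr5:30012971-30013095, plus strand: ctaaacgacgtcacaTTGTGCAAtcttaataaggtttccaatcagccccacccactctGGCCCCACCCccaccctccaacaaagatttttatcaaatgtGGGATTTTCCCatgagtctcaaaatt
The κB letters were found in all 6 promoters searched, as in 45.8% of the 32851 promoters of the table, and the C/EBP letters in 3 of the 6, those of Lcn2, Steap4 and Il6, against 9.56% of all. Lcn2 holds the C/EBP letters from -216 and the κB letters from -102 relative to the start, Steap4 the C/EBP letters from -87 and Il6 from -128. The κB and C/EBP matches did not overlap each other in these promoters. All 3 hold both sets of letters, and only Lcn2 differed between the genotypes without overlap.

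The other genes of the pathway were described in the same way. Of 9 ligands and further receptors of the IL-17 family 4 were tested, Il17d, Il17rb, Il17rd and Il17re, and 0 were called, with a median log2 fold change of -0.09. Il17rb, part of the receptor for IL-25, had 0.34 (adjusted p = 0.776 from limma) and Il17rd, a regulatory receptor, -0.25 (adjusted p = 0.798). Il17d and Il17re had -0.23 and 0.04 (adjusted p = 0.933 and 0.994). Il17a had a signal of 7.42 to 70.3 in KCASP1Tg mice and 29.2 to 49.2 in WT mice, below the filter, and Il17f was not analysed here. These arrays thus gave no tested value for either ligand.

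Of 28 downstream signalling proteins 25 were tested and 0 were called, with 19 positive values (49.6% of all probe sets tested) and a median of 0.04. Traf6, the ubiquitin ligase that Act1 recruits, had a log2 fold change of 0.04, and Rela, the p65 subunit of NF-κB, had -0.0044 (adjusted p = 0.994 and 0.999 from limma). The members of this list with the smallest p included 2 feedback inhibitors of NF-κB that are themselves NF-κB targets. Nfkbia, which encodes IκBα, had signals of 7829 to 15663 in KCASP1Tg mice and 6742 to 8199 in WT mice (0.56, adjusted p = 0.461 from limma). Tnfaip3, which encodes A20, had 344.3 to 1391 in KCASP1Tg mice and 204 to 343.4 in WT mice, just without overlap (0.76, adjusted p = 0.665 from limma). KCASP1Tg 4 stood apart at 1391, where the next highest mouse, KCASP1Tg 5, had 442. Srsf1, a splicing factor that also binds target mRNAs, had 0.21 (adjusted p = 0.675), and Mapk14, the kinase p38α, 0.26 (adjusted p = 0.68).

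Of 22 other IL-17 targets 10 were tested, 2 were called as higher (0.0686% of all probe sets tested) and 0 as lower (0.0% of all). The called genes, S100a8 and S100a9, are abundant in neutrophils, and the study chose them on these arrays. Their log2 fold changes were 5.22 and 5.34 (adjusted p = 0.00633 each from limma). Socs3, a feedback inhibitor of cytokine signalling, had 1.11 (285.7 to 804 in KCASP1Tg mice, 155 to 269 in WT mice, no overlap, adjusted p = 0.303 from limma). Icam1, an adhesion molecule, had 0.63 (652 to 1845 against 479.9 to 606, no overlap, adjusted p = 0.592 from limma). Its signal of 1845 was that of KCASP1Tg 4, and the next highest was 857 in KCASP1Tg 3. The cell type behind the Icam1 signal was not tested. Il1b, interleukin-1β, had 93.8 to 285.4 in KCASP1Tg mice and 66.9 to 117 in WT mice (0.79, adjusted p = 0.593 from limma), and the chemokine gene Cxcl1 had 0.37 (adjusted p = 0.651). Of the 10, 9 had a positive value (49.6% of all probe sets tested), down to 0.08 for Saa3, and Ccl2 had -0.14. The median over the 10 was 0.65. This median is a description and says nothing of the 12 listed genes that were not tested.

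**Figure D4:**
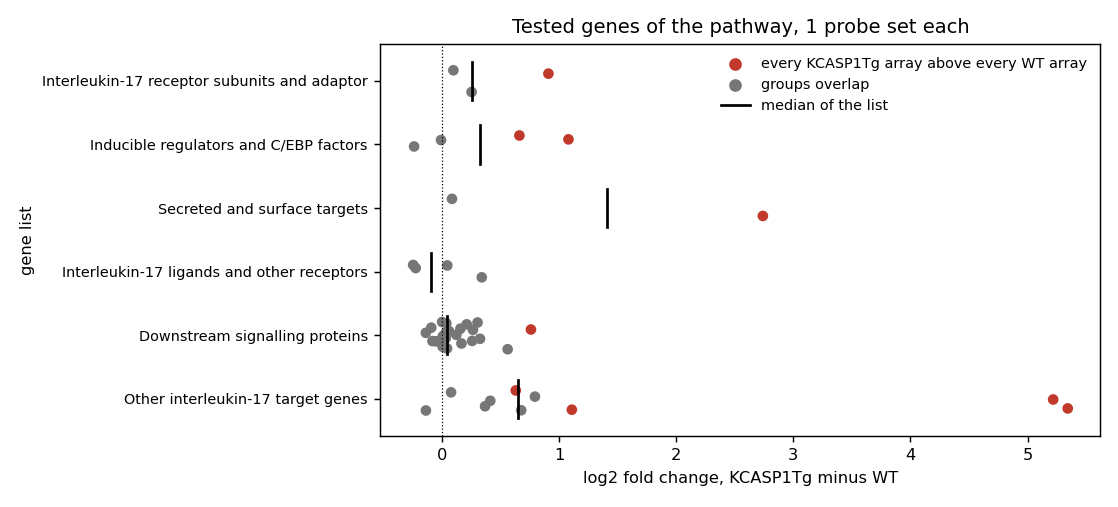
Log2 fold change, KCASP1Tg minus WT, of each tested gene of the 3 groups of members (upper rows) and the 3 lists of other pathway genes (lower rows), 1 probe set per gene, in red where all KCASP1Tg arrays lay above all WT arrays; black bars are medians. The 25 downstream proteins have a median of 0.04, with Tnfaip3 at 0.76 and Nfkbia at 0.56 as the highest of them, and S100a8 and S100a9 lie farthest to the right.

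The genes whose log2 signals over the 10 arrays were most like each member were read as a description, with Pearson's r and no test, since they were the highest of all tested genes. Lcn2 was most like Tbxas1, thromboxane synthase, and Mmp8, the neutrophil collagenase (r = 0.98 each), and Ms4a6c (0.97). Without the 2 arrays farthest from its median, KCASP1Tg 4 and WT 4, r was 0.95 with Tbxas1, 0.99 with Mmp8 and 0.94 with Ms4a6c. Mmp8 passed the filter through KCASP1Tg mice alone, so its r over both genotypes is partly set by the difference between them. Over the KCASP1Tg mice alone, KCASP1Tg 4 included, r was 0.93 with Tbxas1, 0.98 with Mmp8 and 0.94 with Ms4a6c. Il17ra was most like Icam1, Lpxn and Cytip (r = 0.99 each), and without the same arrays r was 0.92, 0.91 and 0.97. Lpxn and Cytip are expressed in leukocytes, and in KCASP1Tg 4, where Il17ra was highest, the summed signal of 6 T cell genes was 5700, where the remaining KCASP1Tg mice had 453 to 879 and WT mice 404 to 641. Of 9 T cell and Th17 genes listed 4 were tested and 0 were called. The monocyte and macrophage sum was highest in KCASP1Tg 4 too, as given above. The part of either in the Il17ra signal was not tested.

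Cebpd was most like Tsc22d3 (r = 0.96), which encodes the glucocorticoid-induced leucine zipper GILZ, followed by Slc10a6 and Slc3a2 (0.96 each), and without KCASP1Tg 4 and WT 4 r was 0.93, 0.93 and 0.94. Of 8 glucocorticoid-responsive genes listed all 8 were tested and 0 were called, with a median log2 fold change of 0.84. Of these, 7 had a positive value (49.6% of all probe sets tested) and 6 an unadjusted p under 0.05 from limma (4.52% of all, as higher). Their summed signal overlapped between the groups, at 14155 to 36481 in KCASP1Tg mice and 13620 to 22512 in WT mice, and was highest in KCASP1Tg 5, whereas Cebpd was highest in KCASP1Tg 4. Both were lowest of the KCASP1Tg mice in KCASP1Tg 6. Fkbp5, another direct target of the glucocorticoid receptor, had signals of 1114 to 4181 in KCASP1Tg mice and 509 to 883 in WT mice, without overlap (1.73, adjusted p = 0.12 from limma), and was the only one of the 8 without overlap. Fkbp5 and Tsc22d3 were highest in KCASP1Tg 4, Cdkn1a, Mt2, Zbtb16 and Per1 in KCASP1Tg 5 and Sgk1 in KCASP1Tg 2. Tsc22d3 had 2023 to 7461 in KCASP1Tg mice and 1681 to 2898 in WT mice (0.95, adjusted p = 0.477 from limma), and Sgk1 had 0.63 (adjusted p = 0.592). Pdk4, the brightest of the 8 by mean signal, had a negative value, -0.55 (adjusted p = 0.819), and was highest in WT 4. There it made up 12816 of the summed signal of 22512, so the overlap of the sums rests in part on this gene. The relation of these genes to the Cebpd signal was not tested. Of 7 immediate early genes tested, which rise within minutes of handling or injury, 5 had a positive value and 0 were called, with a median of 0.17.

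Nfkbiz was most like Rnf31 (r = 0.97), which encodes HOIP, the catalytic subunit of the linear ubiquitin ligase that activates NF-κB. Its next were Trappc10 and Ppm1g (0.95 and 0.94), but over the KCASP1Tg mice alone r was 0.93 with Rnf31 and 0.64 and 0.67 with these. Traf3ip2 was most like Slfn8 (0.96) and Psmb9 (0.96), an immunoproteasome subunit, and after leaving out KCASP1Tg 3 and KCASP1Tg 4 r was 0.75 and 0.82. Steap4 was most like B4galt1 (0.98), Cebpb like Tysnd1 (0.95), Zc3h12a like Gata1 (0.91) and Il17rc like Pdap1 (0.90).

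**Figure D5:**
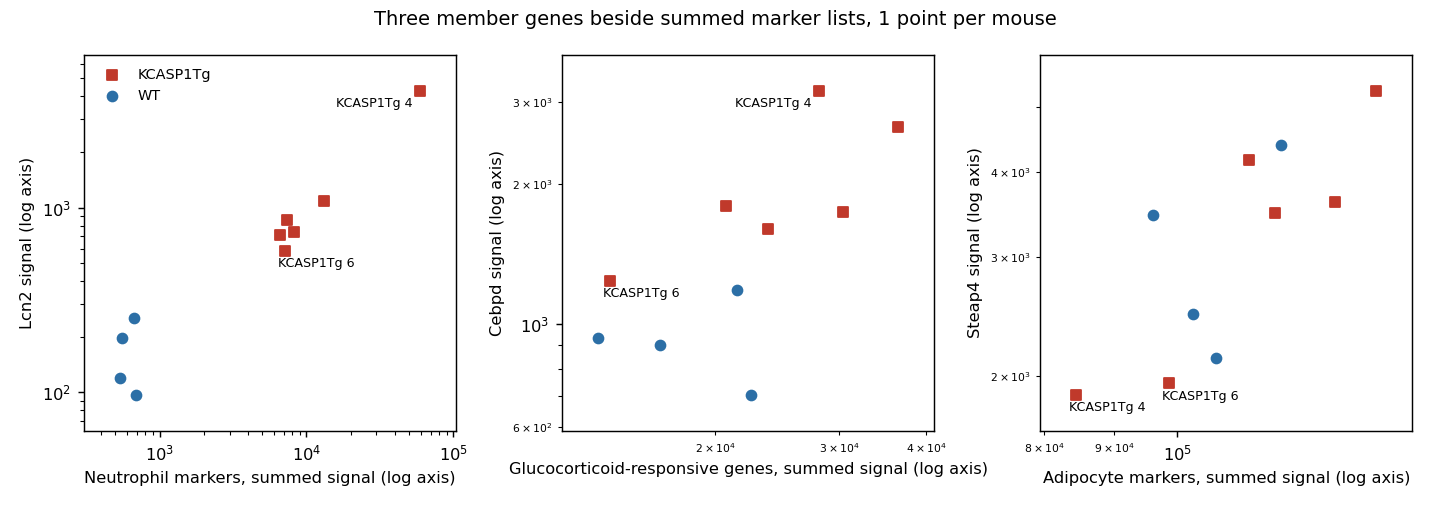
Signal of Lcn2, Cebpd and Steap4 (vertical, log axes) against the summed signal of 10 neutrophil genes, 8 glucocorticoid-responsive genes and 6 adipocyte genes (horizontal, log axes) in each KCASP1Tg mouse (squares) and WT mouse (circles). KCASP1Tg 4 is at the upper end for Lcn2 with a neutrophil sum of 59632 and at the lower end for Steap4 with an adipocyte sum of 84454.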

How the data were processed

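The deposited values are signal intensities on a linear scale, 1 per probe set, which the authors obtained with MAS5 and global scaling to a target of 500. Trimmed by 2% at both ends, the mean was 500 on each of the 10 arrays, and the median signal ranged from 128.6 to 155.9. Their methods name fewer mice than there are arrays. All 10 arrays were used, named by genotype and the number in their label. That each array is a different mouse rests on these labels, and the tests treat the arrays as independent. Of 45101 probe sets 64 controls were left out. The platform annotation gives a single symbol for 34945 of the other 45037, several for 932 and none for 9160. Only the first kind was given a gene name.

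Signals under 1 were set to 1 and log2 values of the 26242 probe sets that reached 100 on 4 or more arrays were fitted by genotype in limma 3.58.1 under R 4.3.3, with Benjamini-Hochberg adjustment over all of them. The exact Mann-Whitney test, the methods' test for a comparison of 2 groups, was computed beside it. All tests are two-sided and measure the spread between mice. In lists each gene is represented by its probe set of highest mean signal. Genes named by rule are all members, called pathway genes and otherwise up to 4 with the smallest p in each list, up to 3 of the brightest markers and the 3 genes most like each member. Other genes named, such as Traf6, Rela, Cxcl1, Fkbp5, Ltf, Elane and Mpo, were chosen after their values were seen. Members and lists were chosen with earlier results of these data known. No batch is given in the sources used here, and detection calls were not used here. Plots used matplotlib 3.10.9 (Python 3.11.15).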

Additional observations from a re-analysis of the deposited data

Results flagged for a closer look

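On the log2 scale 2 of 36 groups of a member probe set held a mouse that stood apart from the rest of its group, where chance gives about 1 in 20. Both were KCASP1Tg 4, as the highest of its group. For Il17ra (1420905_at) its gap to the next mouse was 0.715 of the range of the KCASP1Tg mice, with a signal of 902 against 319 in KCASP1Tg 3. For Lcn2 this share was 0.688, with 4275 against 1087 in KCASP1Tg 3. The second Il17ra probe set and the WT groups held no such mouse.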

How the results depend on the processing

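Alternatives to the floor, pseudocount, signal filter, scaling, variance model, array weights, test and arrays used were computed, and leaving out WT 1 and WT 3 together was chosen after seeing the data. The count of 0 member probe sets called became 3 with array weights (2 of Nfkbiz and Lcn2), and with single arrays left out it ranged from 0 to 1, the 1 being Lcn2 without KCASP1Tg 4. Of all probe sets 18 were called, 267 with array weights, 0 by the exact Mann-Whitney test, 0 without WT 1 and WT 3, and 10 to 69 with single arrays left out (10 without KCASP1Tg 1, 41 without KCASP1Tg 6, 69 without KCASP1Tg 4). The cause was not tested. With the replicate number as a block 0 probe sets were called, 0 of them members. Same-numbered KCASP1Tg and WT arrays correlated at 0.11, -0.31, -0.43 and -0.33 in their deviations from the group means. Arrays of different numbers ran from -0.54 to 0.58, so these values cannot show whether the numbers mark a pairing.

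Nfkbiz, Cebpd, Lcn2, Il17ra and Traf3ip2 kept a positive direction in all alternatives computed. The values ran from 0.60 to 0.74 for Nfkbiz, 0.72 to 1.26 for Cebpd and 2.22 to 3.26 for Lcn2. For Nfkbiz, Cebpd, Lcn2 and Il17ra, whose groups did not overlap, the sign was mostly fixed in advance. Leaving out arrays, the floor, the pseudocount, the signal filter or the choice of test could not change it. The adjusted p over these alternatives ran from 0.0118 to 0.698 for Lcn2 and from 0.0362 to 0.825 for Nfkbiz. Il17ra ran from 0.52 with array weights to 1.16 with the replicate block. Cebpb and Steap4, both close to 0, changed sign. Cebpb was at 0.21 with array weights, 0.16 without WT 4 and KCASP1Tg 3 and 0.0088 without WT 1 and WT 3, and from -0.20 to 0.17 with single arrays left out. Steap4 was at -0.080 to 0.27 with single arrays left out. The mean of both Il17rc probe sets, of which 1 is below the filter, gave -0.27. Signals of Il6 and Zc3h12a near or below 100 limit what these arrays show of them.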

Other observations

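Among the IL-17 targets below the signal filter, Ptgs2, the inducible cyclooxygenase, had signals of 57.3 to 126 in KCASP1Tg mice and 23.4 to 58.2 in WT mice (Mann-Whitney test, exact and two-sided, p = 0.0381, not adjusted). Lif, a cytokine of the IL-6 family, lay the other way, at 7.25 to 50.8 in KCASP1Tg mice and 42.4 to 76.8 in WT mice (exact p = 0.019). Tnfsf11, which encodes RANKL, reached 264.7 in KCASP1Tg 4 and 33.7 in KCASP1Tg 1, where the remaining KCASP1Tg mice had 3.46 to 7.84 and WT mice 1.33 to 5.13. These genes were picked after their values were seen.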
